A study of Mus musculus with 36 samples.

Results

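The 10 genes described here, Fos, Fosb, Jun, Junb, Egr1, Egr2, Ier2, Dusp1, Atf3 and Zfp36, are immediate early genes, and they were followed in the mesenteric lymph nodes of mice given a decoy receptor. All probe sets whose only gene symbol is one of the 10 were taken, which gave 12 of the 22626 probe sets of the first array (array A) and 0 of the 22511 of the second (array B). The arrays named 18193 genes by at least 1 probe set with a single symbol. Total RNA was hybridised to these oligonucleotide arrays, and each probe set has 1 intensity per sample. The control group (day 0) received phosphate-buffered saline (PBS), and the other groups received the soluble lymphotoxin-beta receptor, which binds the ligands of that receptor, for 1, 2, 3, 27 or 35 days. Every group had 3 samples on each array. The labels give no strain, sex, age or dose, no saline group at a later day and no group given a control protein. The labels do not say whether samples of a group are separate mice, and p-values therefore reflect sample spread only, which may be technical.

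Immediate early genes are transcribed within minutes of a stimulus, without new protein synthesis, from factors already in place on their promoters. Growth factors, antigen receptor signals, cell stress and the excision of a tissue can all induce them, and most of their transcripts are short-lived. Serum response factor with its partners acts through CArG boxes, and phosphorylated CREB and ATF proteins act through the cyclic AMP response element (CRE). Fos, Fosb, Jun and Junb are subunits of the transcription factor AP-1, Egr1 and Egr2 are zinc finger factors, Dusp1 is a phosphatase that switches MAP kinases off, and Zfp36 (tristetraprolin) binds AU-rich elements and speeds the decay of cytokine mRNAs. The question put to these data was whether the genes moved with day of treatment by more than samples of 1 day differed from each other. How long the nodes were handled before RNA was taken is not stated in the labels, and its part in any value was not tested.

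The promoters of 4 members with a tested probe set are printed because they carry the response elements through which these genes are usually induced. RefSeq promoter windows on GRCm38.p6, each 300 bases long with 250 before the start of transcription and 50 after it, were matched for 8 of the 10 members in 12 windows. Egr1 and Ier2 had no entry. Each line gives the 250 bases before the start, 5′ to 3′ on the gene's strand. The capitals mark TGACGT (the core of the CRE, on either strand) in Fos at chr12:85473640-85473889 on the plus strand, in Dusp1 at chr17:26508473-26508722 on the minus strand and in Atf3 at chr1:191183334-191183583 on the minus strand. In Zfp36 at chr7:28379229-28379478 on the minus strand they mark a CArG box.
Fos: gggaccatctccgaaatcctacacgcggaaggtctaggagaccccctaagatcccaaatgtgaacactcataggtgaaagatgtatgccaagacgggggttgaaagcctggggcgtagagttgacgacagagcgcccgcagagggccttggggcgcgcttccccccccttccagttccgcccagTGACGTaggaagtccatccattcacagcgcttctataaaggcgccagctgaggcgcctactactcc
Dusp1: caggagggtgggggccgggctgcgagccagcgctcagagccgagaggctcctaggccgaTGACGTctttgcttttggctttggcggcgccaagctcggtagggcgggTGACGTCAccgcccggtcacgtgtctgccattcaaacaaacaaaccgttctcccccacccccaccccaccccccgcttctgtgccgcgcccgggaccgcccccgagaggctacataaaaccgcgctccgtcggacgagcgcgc
Atf3: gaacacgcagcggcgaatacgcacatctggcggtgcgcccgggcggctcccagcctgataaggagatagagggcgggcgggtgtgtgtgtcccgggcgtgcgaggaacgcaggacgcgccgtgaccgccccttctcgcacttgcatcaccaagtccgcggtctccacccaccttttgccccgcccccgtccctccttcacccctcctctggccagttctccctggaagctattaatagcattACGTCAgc
Zfp36: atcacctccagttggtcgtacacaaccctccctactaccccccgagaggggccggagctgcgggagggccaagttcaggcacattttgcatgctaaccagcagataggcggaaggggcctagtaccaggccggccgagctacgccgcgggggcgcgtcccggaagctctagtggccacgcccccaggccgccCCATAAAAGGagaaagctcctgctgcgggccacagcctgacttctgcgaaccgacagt
On both strands, the core TGACGT was found in 4 of the 8 members (Atf3, Dusp1, Egr2 and Fos). That was 6 of their 12 windows, beside 7.51% of 32851 mouse windows of this length. Egr2 has several windows, some of which overlap and hold the same core, so that 1 site was counted more than once. The full CRE TGACGTCA, which contains the core, was found in Dusp1 only (1 of the 12 windows) and in 1.79% of mouse windows. The AP-1 site TGAGTCA was found in 0 of the 8 members and in 5.2% of mouse windows. A CArG box was found in Egr2 and Zfp36 (5 of the 12 windows) and in 1.63% of mouse windows. All but the Zfp36 window belong to Egr2, whose overlapping windows share the site CCATATATGG. A match describes these letters only, and no match says nothing about a factor.

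The median intensity of an array was 272.8 to 299.5 for array A, and for array B it was 149.8 to 165.2, so no sample stood apart by its overall level. All 7 B cell and 7 T cell marker genes named on array A had mean levels above the floor given below, whereas 3 of 6 pancreas and 2 of 5 intestine markers lay below it. All 5 fat cell markers named on array A also lay above it. Their summed intensity was 14702 to 16477 in PBS and 10468 to 13583 at day 35, and the part of fat in the member values was not tested. Values were raised to a floor of 122.6 on array A (the 20th percentile of its values) and taken to log2, and a probe set was tested with limma where it exceeded the median of all values (286.7) on at least 3 of the 18 arrays. That left 12231 probe sets, among them 8 of the 12 probe sets of the members and so 8 of the 10 genes. The day 27 sample 2, the day 3 sample 3 and the day 35 sample 3 had the lowest array weights (0.232, 0.269 and 0.287), a measure of how closely an array follows the fit. In these bulk samples fewer cells of a type and less RNA per cell cannot be told apart.

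The tested immediate early genes varied within a day about as much as all tested probe sets did (median SD 0.109 and 0.113 on the log2 scale). Over the 8 tested probe sets and 6 days, the highest sample of a day exceeded the lowest by 1.03 to 1.35 times, with a median of 1.12. For the 4 probe sets too dim to test this ratio was 1.02 to 1.43, with a median of 1.16. Of 40 comparisons of a day with PBS, 2 passed the test at an adjusted p of 0.05 (Benjamini-Hochberg over all probe sets of the array), both for Egr1, which rose at days 3 and 35. The 95% intervals of the 40 comparisons together spanned 0.692-fold to 1.43-fold.

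Counted by day, 0 of the 8 members passed at day 1 (against 0.0164% of all tested probe sets) and 0 at day 2 (0.114%). At day 3 the count was 1 (0.556%, or 0.139% called higher), at day 27 it was 0 (3.18%), and at day 35 it was 1 (7.36%, or 1.77% called higher). At an unadjusted p under 0.05, the limma counts were 0, 2, 1, 3 and 1 of the 8 on those days, and 411, 675, 1236, 2248 and 2783 of the 12231. The 3 treated and 3 PBS samples did not overlap for 1 member at day 1 (10.8% of all tested probe sets), 2 at day 2 (14.3%), 2 at day 3 (16%), 3 at day 27 (20.6%) and 3 at day 35 (29.1%). The median log2 change of the members lay between -0.04 (day 27) and 0.04 (day 3), and that of all tested probe sets between 0.02 and 0.05. Every day was compared with the same 3 PBS samples.

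**Figure D1:**
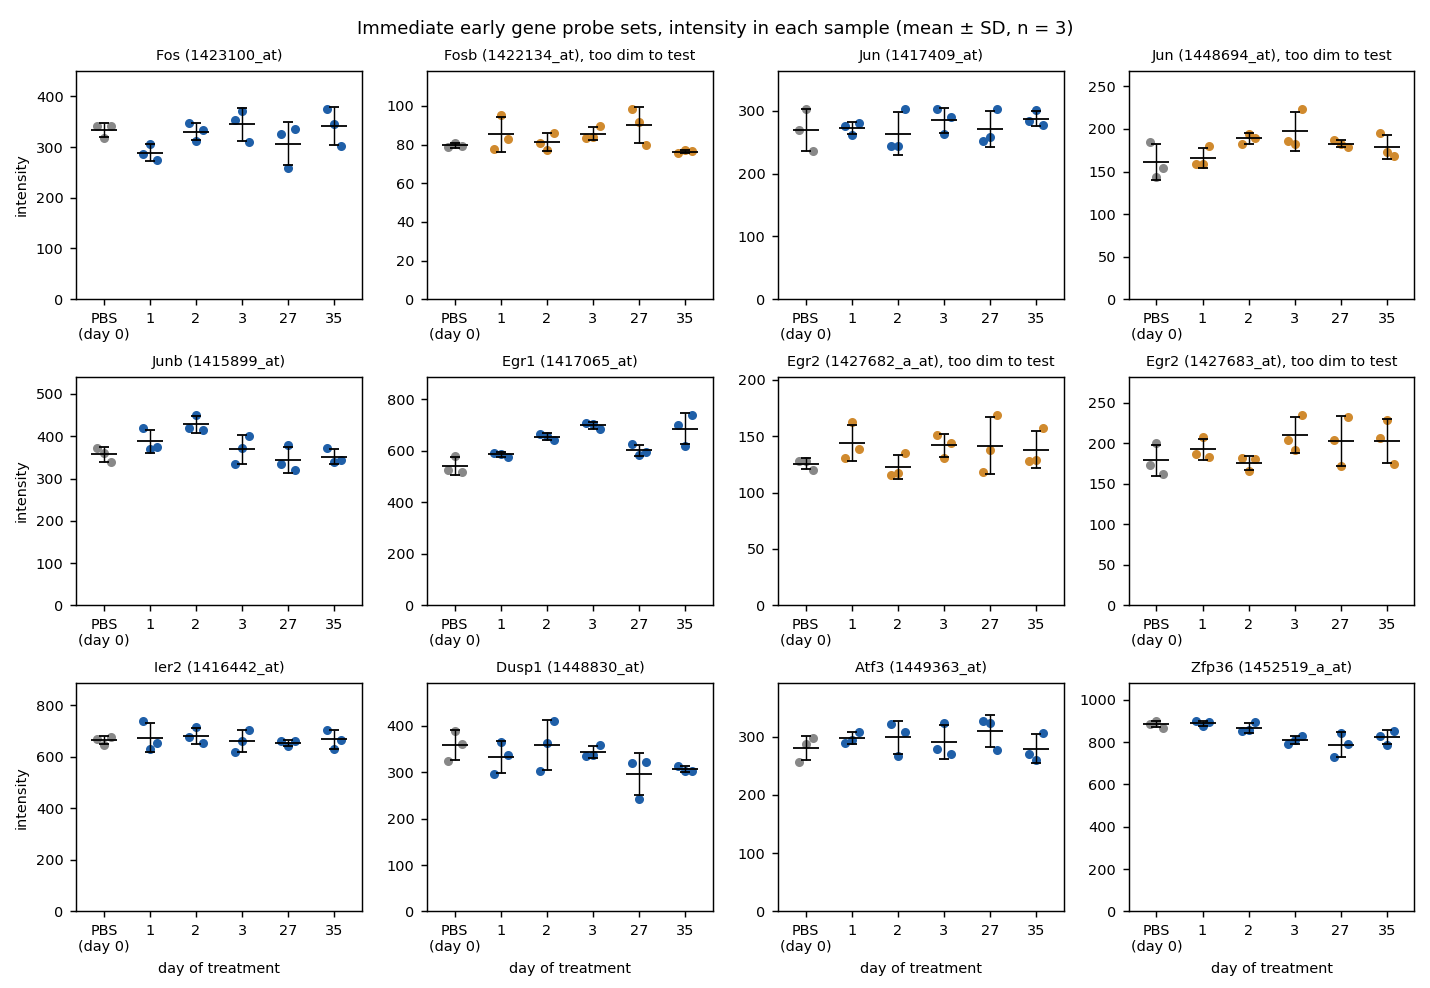
Intensity (linear axis from 0) of all 12 probe sets by day of treatment; points are samples, bars the mean ± SD of 3 samples, grey PBS, blue tested probe sets and orange probe sets too dim to test. Egr1 runs from 541.0 in PBS to 698.1 at day 3, while Ier2 stays between 654.7 and 682.0.

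Among the AP-1 subunits no member passed the test on any single day. Fos, the partner of the Jun proteins, measured 342, 318 and 341 in PBS samples 1, 2 and 3, and 286, 307 and 275 at day 1. It measured 347, 312 and 334 at day 2, 353, 372 and 310 at day 3, 326, 258 and 337 at day 27, and 376, 346 and 302 at day 35. All 3 day 1 samples lay below all 3 PBS samples, the later days overlapped PBS, and the lowest single value was that of day 27 sample 2. The log2 change at day 1 was -0.21 (SE 0.10, 95% interval -0.42 to 0.0083, adjusted p = 0.998), and on the other days it lay between -0.13 and 0.04.

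Jun, which forms AP-1 as a dimer with itself or with Fos, showed no order of days beyond its spread. Its brighter probe set measured 270, 303 and 235 in PBS, 276, 261 and 280 at day 1, and 245, 244 and 303 at day 2. It measured 302, 263 and 290 at day 3, 252, 258 and 303 at day 27, and 283, 301 and 278 at day 35. PBS samples 2 and 3 held almost the whole range of the 18 samples between them. The day changes ran from -0.03 to 0.10 (log2, 95% intervals from -0.25 to 0.32). The dimmer probe set of Jun, at 144 to 224 on the 18 arrays, was not tested. With no filter on dim probe sets its largest change was 0.29 at day 3 (adjusted p = 0.361).

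Junb, a Jun protein that is often less active than Jun and competes with it, was highest at day 2. It measured 373, 361 and 338 in PBS, 420, 370 and 374 at day 1, 421, 451 and 414 at day 2, and 334, 372 and 402 at day 3. It measured 335, 378 and 320 at day 27 and 372, 340 and 343 at day 35. The day 2 samples lay above all PBS samples and above all samples of days 27 and 35, and day 1 overlapped PBS by 1 sample. At day 2 the log2 change was 0.26 (SE 0.084, 95% interval 0.08 to 0.44), with an adjusted p of 0.646. Fosb, a close relative of Fos, measured 75.4 to 98.6 on the 18 arrays, below the floor on every one.

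Between the mean of days 1, 2 and 3 and the mean of days 27 and 35, Junb fell by 0.18 on the log2 scale (SE 0.054, 95% interval -0.29 to -0.07, adjusted p = 0.0302). It was the only 1 of the 8 members called in this comparison, in which 15.4% of all tested probe sets were called and 10.4% were called lower. The early samples (334 to 451) and the late ones (320 to 378) overlapped. Leaving out day 1 sample 1, day 2 sample 2, day 3 sample 2, day 27 sample 1 or 3, or day 35 sample 2 or 3 ended the call (adjusted p up to 0.0952). Of 36 small respiratory chain subunits, whose mean level moved with day of treatment, 32 were lower in the late samples. With their mean as a covariate the change of Junb was -0.19 with an adjusted p of 0.264, in a fit that cannot tell that mean apart from day.

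Egr1, which is induced by antigen receptor and growth factor signals, moved with day of treatment. It measured 525, 580 and 518 in PBS, 592, 589 and 576 at day 1, 665, 658 and 639 at day 2, and 709, 703 and 683 at day 3. It measured 625, 584 and 594 at day 27 and 701, 618 and 739 at day 35. From day 2 on every treated sample lay above every PBS sample, and at day 1 only the third sample lay under the highest PBS sample. The day means, from lowest to highest, were 541.0 ± 33.9 in PBS, 585.5 ± 8.68 at day 1, 600.9 ± 21.1 at day 27, 654.2 ± 13.3 at day 2, 685.9 ± 61.8 at day 35 and 698.1 ± 13.4 at day 3 (SD, n = 3). In this order only days 27 and 2 were neighbours without overlap.

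Egr1 rose by 0.37 (log2, SE 0.069, 95% interval 0.22 to 0.51, adjusted p = 0.0191) at day 3, a 1.29-fold change. At day 35 it rose by 0.34 (SE 0.069, 95% interval 0.19 to 0.49, adjusted p = 0.00585), a 1.27-fold change. The changes at day 1 (0.12, adjusted p = 0.998), day 2 (0.28, 95% interval 0.13 to 0.42, adjusted p = 0.265) and day 27 (0.15, adjusted p = 0.247) did not pass. The mean of days 27 and 35 was above PBS by 0.25 (adjusted p = 0.0156), the only call among the members in a comparison that called 8.34% of tested probe sets (2.58% higher). For the mean of days 1, 2 and 3 the change was 0.25 (adjusted p = 0.124), with 0 of 8 members called against 0.155% of probe sets. An F test over all 6 groups called Egr1 alone among the members (adjusted p = 0.00716, with 7.71% of probe sets called). Days 35 and 27 differed by 0.19 (adjusted p = 0.621), in a comparison that called 0 probe sets at that threshold and 815 at an unadjusted p under 0.05 (limma), 1 of them a member.

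The day 3 call of Egr1 ended without PBS sample 1, PBS sample 3, day 3 sample 1 or day 3 sample 2 (adjusted p 0.0760 to 0.116, log2 change 0.34 to 0.36). The call of the late mean ended without PBS sample 1 (adjusted p = 0.0649) or PBS sample 3 (0.109), with a common median, with only the groups compared and with the respiratory chain covariate (adjusted p 0.0680 to 0.0921). The day 35 call held whichever array was left out (adjusted p up to 0.0362). It ended when only days 0 and 35 were fitted (adjusted p = 0.0559) and with the respiratory chain mean as a covariate (log2 change 0.22, adjusted p = 0.116). At day 35, 28 of the 36 respiratory chain subunits were lower than in PBS. Relative to its average over all samples, their mean log2 level was 0.12 to 0.15 in PBS and -0.45 to -0.24 at day 35. A fit with this covariate therefore cannot tell it apart from day of treatment, and the part of the respiratory chain in the value of Egr1 was not tested.

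Fibroblast and matrix transcripts moved beside Egr1, and so did markers of other cell types, given below. The summed intensity of 8 such marker genes, none of them below the floor, was 10534 to 11453 in PBS, 12435 to 13071 at day 1, 13155 to 14560 at day 2 and 13442 to 14078 at day 3. It was 11204 to 13797 at day 27 and 13163 to 13904 at day 35. The sum lay above all PBS samples on every treated day except day 27, where sample 2 fell within the PBS range. Of the 7 tested genes, 0 were called at day 1. Lum, a collagen-binding proteoglycan, was the 1 called higher at days 2, 3 and 27, and Egr1 was not called at days 2 and 27. At day 35, 5 were called higher (Col1a1, Col1a2, Col3a1, Lum and Pdgfra). Of all tested probe sets, 0.0164%, 0.114%, 0.556%, 3.18% and 7.36% were called in either direction at days 1, 2, 3, 27 and 35. The shares called higher, the direction of the stromal calls, were 0.139% at day 3 and 1.77% at day 35. Of 9 macrophage genes, Adgre1 was called higher and Lyz2 lower at day 3, and Adgre1 alone was called, higher, at day 35. Follicular dendritic cell genes were called lower in 3 of 6 at day 3 and 2 of 6 at day 35. High endothelial venule genes were called lower in 3 of 5 on both days, and Madcam1 is in both lists. The part of stromal or other cells in the change of Egr1 was not tested.

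**Figure D2:**
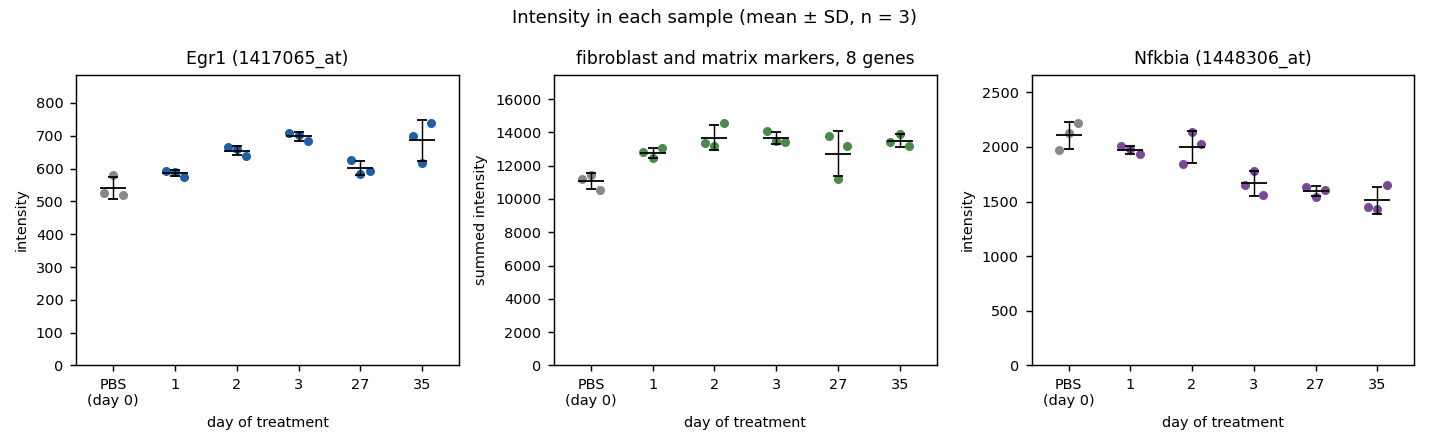
Intensity by day of treatment for Egr1, for the sum of 8 fibroblast and matrix marker genes and for 1 probe set of Nfkbia. That probe set is not the brightest of Nfkbia, which encodes an inhibitor of NF-kappa-B, and the brightest was not called. Points are samples and bars the mean ± SD of 3, on linear axes from 0. Egr1 and the marker sum are above PBS at days 2, 3 and 35 in every sample, and Nfkbia falls from 2105 in PBS to 1510 at day 35.

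Egr2, which restrains T cell activation, was too dim to test on either of its probe sets. One measured 115 to 169 and the other 163 to 235 over the 18 arrays, and with no filter on dim probe sets their largest changes were 0.18 (day 1, adjusted p = 1) and 0.23 (day 3, adjusted p = 0.713).

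Ier2, a nuclear protein induced by growth factors, showed the smallest range of day means among the members. It measured 670, 646 and 677 in PBS, 739, 632 and 652 at day 1, 677, 714 and 654 at day 2, and 620, 663 and 706 at day 3. It measured 661, 642 and 662 at day 27 and 704, 632 and 667 at day 35. Every day overlapped PBS, and the highest value was that of day 1 sample 1. Its log2 changes lay between -0.02 and 0.04, and the 95% intervals of all 5 days lay between 0.887-fold and 1.14-fold.

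Atf3, a stress-induced CREB family repressor, measured 257, 287 and 297 in PBS, 289, 294 and 308 at day 1, and 322, 267 and 307 at day 2. It measured 278, 323 and 270 at day 3, 327, 323 and 277 at day 27, and 270, 260 and 307 at day 35. All 5 treated days overlapped PBS. The changes ran from -0.01 to 0.14 (log2, 95% intervals from -0.21 to 0.34).

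Both feedback genes, like Junb and Ier2, had their lowest day means at day 27, without passing the test on that day. Dusp1 measured 324, 388 and 361 in PBS, 296, 364 and 336 at day 1, 303, 363 and 410 at day 2, and 334, 338 and 359 at day 3. It measured 321, 243 and 323 at day 27 and 314, 303 and 302 at day 35. All 6 late samples lay below the PBS samples, day 27 sample 2 was the lowest of the 18, and day 2 alone spanned 303 to 410. The log2 change was -0.29 at day 27 (95% interval -0.53 to -0.04, adjusted p = 0.199) and -0.25 for the mean of both late days (adjusted p = 0.134). Without day 27 sample 2 the day 27 change was -0.15 (adjusted p = 0.483). Late minus early was -0.20 (adjusted p = 0.0881), and with single arrays left out it ran from -0.13 (without day 27 sample 2, adjusted p = 0.211) to -0.23 (without day 2 sample 1, adjusted p = 0.0385), the only 1 of 15 omissions that gave a call.

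Zfp36 measured 886, 900 and 869 in PBS, 900, 876 and 893 at day 1, 851, 859 and 895 at day 2, and 789, 812 and 828 at day 3. It measured 728, 845 and 792 at day 27 and 829, 788 and 855 at day 35. Every sample of days 3, 27 and 35 lay below every PBS sample, and days 1 and 2 overlapped PBS. The log2 changes on those 3 days were -0.13 (adjusted p = 0.523), -0.17 (95% interval -0.30 to -0.04, adjusted p = 0.157) and -0.10 (adjusted p = 0.350). Over both late days the change was -0.14 (adjusted p = 0.137), and 1 of 9 omissions gave a call, that of day 27 sample 2 (-0.16, adjusted p = 0.0479). The other omissions did not, among them day 27 sample 1 (-0.11, adjusted p = 0.227) and PBS sample 2 (-0.12, adjusted p = 0.307). With array weights in the fit it was called at day 27 (-0.26, adjusted p = 0.000934) and at day 35 (-0.15, adjusted p = 0.0417), and without the 3 arrays of lowest weight at day 27, whereas the other 10 alternatives gave no call on either day. Array weights called 2485 and 3046 of all tested probe sets on those days, beside 389 and 900 in the main fit. The 6 late samples and the PBS samples did not overlap for Egr1, Dusp1 and Zfp36, 3 of the 8 members, against 12.1% of all tested probe sets.

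**Figure D3:**
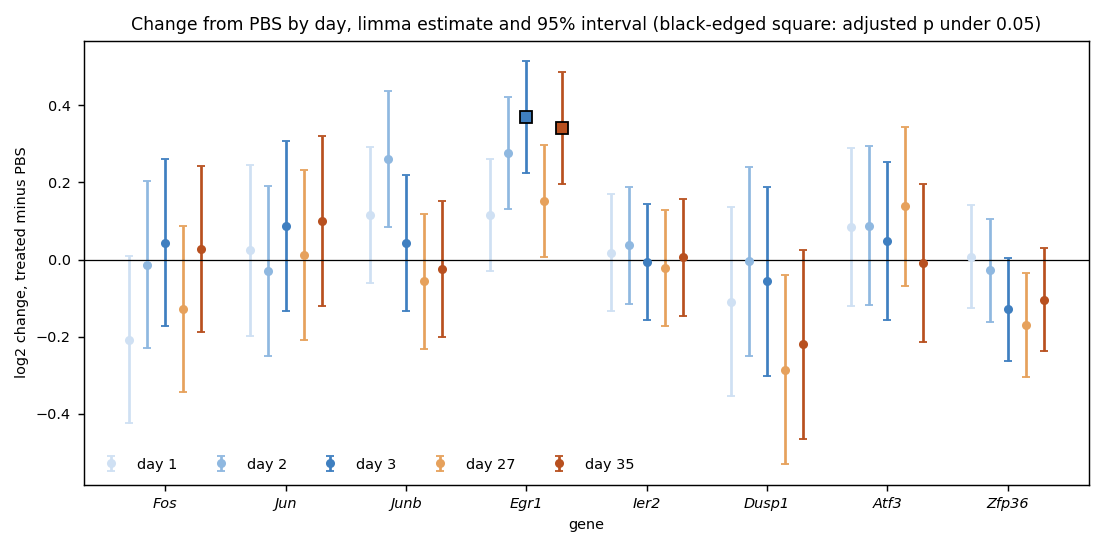
Log2 change of each tested member from PBS at days 1, 2, 3, 27 and 35, as limma estimates with 95% intervals; squares with a black edge mark an adjusted p under 0.05. The squares are Egr1 at day 3 (0.37) and day 35 (0.34), and most other intervals cross 0.

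Spread between samples of the same day was measured as the within-group SD of the log2 values over the 6 groups. Its median over the 8 members was 0.109, beside 0.113 over all tested probe sets, and the medians of the range of the day means were 0.21 and 0.20. The members differed among themselves. Zfp36 (SD 0.0560) and Egr1 (0.0708) were among the steadier probe sets, at percentiles 2.80 and 10.2 of all tested, whereas Dusp1 (0.156) lay at percentile 81.2. Fos (0.131) and Jun (0.132) lay at percentiles 65.9 and 66.1.

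The share of the sum of squares that lay between days was 83.7% for Egr1, 68.4% for Zfp36 and 63.5% for Junb. It was 41.8% for Fos, 41.3% for Dusp1, 21.6% for Atf3, 15.8% for Jun and 7.95% for Ier2. The median was 41.6% for the members and 36.7% for all tested probe sets. Only for Egr1 did the day means range over more than 5 within-group SDs (5.22).

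**Figure D4:**
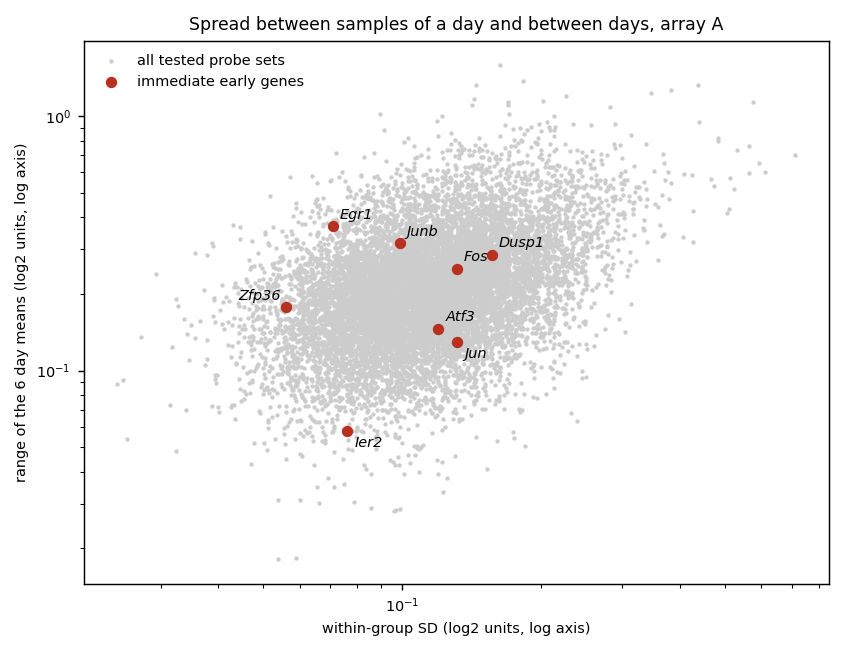
Range of the 6 day means against the within-group SD of log2 values for the 12231 tested probe sets of array A (grey) and the 8 tested members (red), both axes logarithmic. Egr1 combines a small SD (0.0708) with a wide range of day means (0.37), and Ier2 a small SD (0.0762) with a narrow range (0.06).

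Deviations of the members between samples of the same day were small and of mixed sign. After each day's mean was taken away, the mean deviation of the 8 members in a sample lay between -0.04 (day 35 sample 2) and 0.05 (day 2 sample 3) on the log2 scale. Day 27 sample 2 lay low in Fos (-0.24) and Dusp1 (-0.27) and above its day's mean in Junb, Atf3 and Zfp36. Day 2 sample 3 was the highest of its day in Jun, Dusp1 and Zfp36 and the lowest in Junb, Egr1 and Ier2. The mean deviation of the 13 tested heat shock genes ran from -0.09 (day 2 sample 2) to 0.15 (day 2 sample 3), so the sample with the highest member mean also had the highest heat shock mean. In day 35 sample 2, the lowest by its member mean, the heat shock mean was 0.05. The part of heat shock in the member values was not tested.

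Of the 28 pairs of members, 13 had a positive correlation of these deviations over the 18 samples, and the median was -0.05. The highest were Junb with Ier2 (r = 0.65) and Junb with Zfp36 (0.48), and the lowest were Fos with Zfp36 (-0.62) and Fos with Junb (-0.46). Fos and Dusp1, whose printed promoters both hold the CRE core, had r = 0.31, and Atf3, with the same core, had -0.10 with Fos and -0.14 with Dusp1. Over all 30423900 pairs of 7801 tested genes the median was 0.07 and 56.3% were positive. These correlations are descriptions, since values of 1 array share its hybridisation and scaling.

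**Figure D5:**
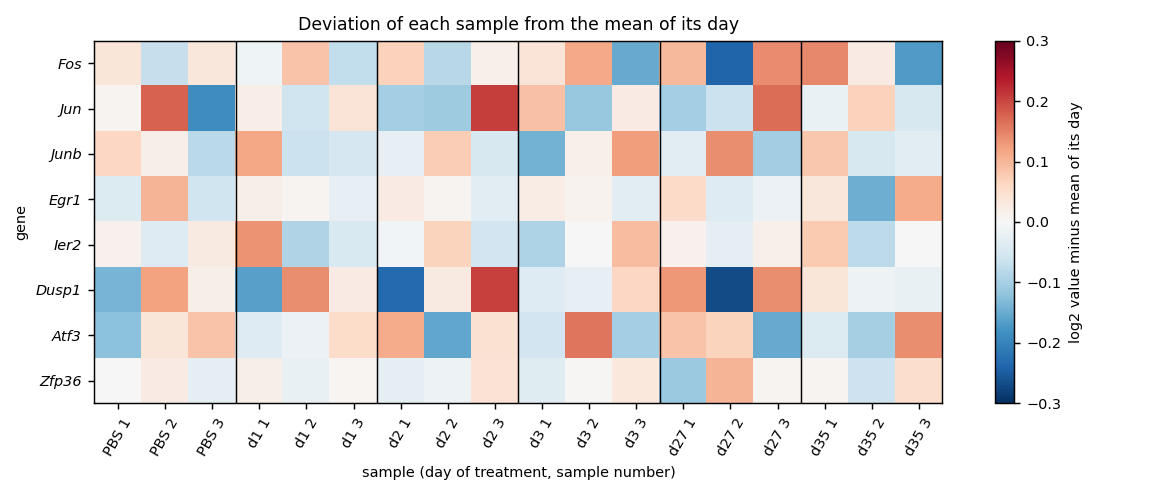
Deviation of each sample (columns, grouped by day) from the mean of its day for the 8 tested members (rows), in log2 units from blue (below) to red (above). No sample is red or blue throughout, and day 27 sample 2 is deep blue in Fos (-0.24) and Dusp1 (-0.27) and pale or red elsewhere.

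The genes whose level followed the mean of the 8 members most closely over the 18 samples were Rrp1 (r = 0.78), Tmcc3 (0.78), Zyx (0.77), Irf1 (0.74), Pdrg1 (0.74), Hspd1 (0.74), Cbfa2t3 (0.72) and Ifi30 (0.71), of 7793 ranked. In a ranking chosen after values were seen, those closest to Egr1 alone were Mmp2 (r = 0.85), Lum (0.80), 1600012H06Rik (0.74), Col3a1 (0.74), Kmt5c (0.71), Dcaf4 (0.71), Brk1 (0.71) and Ccn5 (0.71). Mmp2, Lum and Col3a1 encode a matrix protease, a matrix proteoglycan and a fibrillar collagen. All samples of a day share a treatment, and part of each r is the difference between days.

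Of 24 other induced transcription factors listed, 20 were tested, and 0 passed at days 1, 2 or 3, with 3, 4 and 4 at an unadjusted p under 0.05 in limma. The orphan receptor Nr4a1 rose at day 27, from 1699, 1756 and 1799 in PBS to 1925, 2351 and 2071 (log2 change 0.27, adjusted p = 0.0456), a call that held in 5 of 18 fits with 1 array left out. Id3, an inhibitor of E proteins, fell at day 35 (-0.27, adjusted p = 0.0180). They were the 1 call of the list on each of those days, beside 3.18% and 7.36% of all tested probe sets. Between early and late days Nr4a1 rose (0.19, adjusted p = 0.00771), and Cebpb (-0.29), Cebpd (-0.41) and Id3 (-0.23), regulators of inflammation and differentiation, fell, which made 4 of 20 beside 15.4% of all tested probe sets. In the late mean against PBS, Nr4a1 (0.22) and the zinc finger factor Klf6 (0.23) were higher and Cebpd (-0.38) and Id3 (-0.20) lower, and the other 16 did not pass. That comparison called 8.34% of all tested probe sets. Of 18 fits with 1 array left out, Nr4a1 held its late call in 13, Klf6 in 10, Cebpd in 13 and Id3 in 5. The other AP-1 genes Fosl1, Fosl2 and Jund passed in no comparison of days, with log2 changes at day 3 of 0.08, 0.05 and -0.05 on array A.

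Among 29 tested of 34 other induced feedback and secreted genes, 0 passed at days 1, 2 or 3 by their brightest probe set, with 0, 2 and 6 at an unadjusted p under 0.05 in limma. Dusp6, an ERK phosphatase, rose at day 27 (0.26) and day 35 (0.27, adjusted p = 0.0212). Its calls held in 5 and 14 of 18 fits with 1 array left out. Rhob, a small GTPase, fell from 1061, 1217 and 1139 in PBS to 689, 746 and 896 at day 35 (-0.56, adjusted p = 0.00507), with no overlap. Of the 29, 1 was called higher and 1 lower at day 27, beside 3.18% of all tested probe sets. At day 35, 2 were called higher and 1 lower, beside 7.36%. Between early and late days, Btg2 (-0.17), Socs3 (-0.24), Rgs2 (-0.24), Rhob (-0.28) and Trib1 (-0.13) fell, Dusp6 (0.18) and Zfp36l1 (0.24) rose, and 22 genes did not pass. When single arrays were left out, Trib1 held in 5 of 18 fits, Zfp36l1 in 10, Btg2 in 11 and the rest in all 18. The 7 of 29 called stand beside 15.4% of all tested probe sets, and the 5 lower beside 10.4%. Rgs2 and Trib1 were named after their values were seen. Mcl1, a survival protein of the BCL2 family, fell on a probe set that was not its brightest (-0.28, adjusted p = 0.000739).

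Probe sets of 1 gene disagreed in this list. For Socs3, a cytokine signalling inhibitor, the brightest probe set fell by 0.24 and another rose by 0.22 between early and late days. For Zfp36l1, a relative of Zfp36, the brightest rose and another fell by 0.20. Nfkbia fell on 1 probe set from 1973, 2123 and 2218 in PBS to 1652, 1782 and 1563 at day 3 (-0.34, adjusted p = 0.0489) and to 1451, 1428 and 1650 at day 35 (-0.48, adjusted p = 0.00112), without overlap on either day. The day 3 call held in 2 of 18 fits with 1 array left out and the day 35 call in all 18. Another probe set of Nfkbia on array A also fell at day 35 (-0.49, adjusted p = 0.0152) and between early and late days (-0.30). A further probe set on array A fell between early and late days (-0.24, adjusted p = 0.00377). On array B, where 3.59% of tested probe sets were called at day 35, Nfkbia fell by 0.58 (adjusted p = 0.00857). By contrast, its brightest probe set on array A changed by 0.11 and was not called.

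Upstream kinases and factors were read beside them, with heat shock genes and genes of the response to low oxygen, both of which can be induced after a tissue is excised. None of the 17 tested upstream genes (23 listed), 13 heat shock genes (15 listed) and 12 low oxygen genes (14 listed) passed at days 1, 2 or 3, and at an unadjusted p under 0.05 the limma counts at day 3 were 2, 1 and 2. Mrtfa, a coactivator of serum response factor, fell at day 27 (-0.26) and day 35 (-0.22), and Map2k2, an ERK kinase, fell at day 35 (-0.31, adjusted p = 0.0136). That made 1 of 17 at day 27 and 2 of 17 at day 35, beside 3.18% and 7.36% of all tested probe sets. Of 18 fits with 1 array left out, Mrtfa held in 14 at day 27 and 5 at day 35, and Map2k2 in 16 at day 35. Between early and late days both fell again (-0.17 and -0.22), 2 of 17 beside 15.4% of all tested probe sets. Atf2 rose on a probe set that was not its brightest (0.26, adjusted p = 0.0171).

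Of the heat shock list, the mitochondrial chaperonin Hspe1 fell at day 27 (-0.32, adjusted p = 0.0372), 1 of 13 beside 3.18% of all tested probe sets. Dnaja1 (-0.35), Dnajb1 (-0.30) and Hspe1 (-0.26) fell between early and late days, 3 of 13 beside the same 15.4%, and 10 did not pass. Hspa8 (-0.38, adjusted p = 0.0142) and Hsph1 (-0.42, adjusted p = 0.0449), also chaperones and named after their values were seen, fell on probe sets that were not their brightest. Hspa8 held in all 18 fits with 1 array left out and Hsph1 in 6. In the low oxygen list Ddit4, an inhibitor of mTOR signalling, fell at day 35 (-0.57, adjusted p = 0.0172) and Hif1a was higher in late than in early samples (0.33, adjusted p = 0.00428). Each was 1 of 12 in its comparison, beside 7.36% and 15.4% of all tested probe sets. In all, 67 calls were made on probe sets of array A in 24 genes of these 5 lists, and 26 of them held whichever array was left out. Of the 67, 32 were late against early, where 15.4% of all tested probe sets were called. The 67 have no matching count over all probe sets and are a description only. With the respiratory chain mean as a covariate 59 of the 67 ended, in fits that cannot tell that mean apart from day of treatment. How many calls over all probe sets ended with this covariate is not given, so the 59 are not a trait of these lists.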

How the data were processed

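Values are intensities on a linear scale as deposited by the authors, 1 for each probe set of an array, and how they were made from the scans (software, background, scaling) is not stated in the labels or file headers. Groups and sample numbers came from the labels, and probe sets were named where the platform annotation gives 1 symbol. Each of the 2 tables of 18 arrays was floored at its 20th percentile, taken to log2 and fitted alone with limma 3.58.1 in R 4.3.3 (lmFit, eBayes with a trend, 6 groups, 12 residual degrees of freedom). P-values are two-sided, adjusted by Benjamini-Hochberg within table and comparison and called at 0.05. Changes in log2 are given as the treated day minus PBS, or as late minus early. The procedure was tested on simulated data. The number of arrays limits the precision.

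The members, the gene lists and the rule for named genes were chosen with earlier results of these data known. The rule names all members, every called gene of the wider lists (up to 6 per list and comparison), up to 3 called heat shock and low oxygen genes per comparison, and the 8 genes that follow the member mean most closely. A gene is represented by its brightest tested probe set unless another is named. Same-numbered samples did not deviate together on array A (median r = 0.02 over 45 pairs of samples), and on array B they did in part (median r = 0.37, with 34 of 45 pairs above 0.1). Since not every pair did, sample numbers were not used as a block on either array. Alternatives covered scaling, floor, filter, variance model, array weights, the block, the samples fitted and the omission of single arrays. A fit without the 3 arrays of lowest weight and a fit with the respiratory chain mean as a covariate were chosen after seeing the data.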

Additional observations from a re-analysis of the deposited data

Results flagged for a closer look

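Junb was singled out because its change from PBS differed between the early and the late days by a test of that difference. Late minus early, its log2 value was -0.18 (limma, adjusted p = 0.0302), from 0.14 above PBS over days 1, 2 and 3 to 0.04 below it over days 27 and 35 (log2 change -0.04). Neither mean differed from PBS past the threshold (adjusted p = 0.793 and 0.773). The early group held 9 samples and the late group 6, and they overlapped.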

How the results depend on the processing

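The member counts changed under these settings. With array weights, 2 members were called at day 2, 1 at day 27, 3 at day 35, 1 for the early mean, 3 for the late mean, 2 for late against early and 4 by the F test. Of all tested probe sets, array weights called 536 at day 2, 2485 at day 27 and 3046 at day 35, beside 14, 389 and 900. They called 272 for the early mean, 3298 for the late mean, 4114 for late against early and 4721 by the F test. The main fit called 19, 1020, 1880 and 943 in those comparisons. Without the 3 arrays of lowest weight the counts were 1 at day 27, 1 for the early mean, 2 for the late mean, 2 for late against early and 4 by the F test. When only the groups compared were fitted, 0 were called at day 3, at day 35 and for the late mean. Those fits called 29, 691 and 561 of all tested probe sets, beside 68, 900 and 1020 in the main fit. With a common median 0 were called for the late mean. With the respiratory chain mean as a covariate, 0 were called at day 35, for the late mean, for late against early and by the F test. That mean itself moved with day of treatment, and such a fit cannot tell the 2 apart. Matching counts over all probe sets are not given for this covariate, the common median or the fit without 3 arrays. Leaving out single arrays gave 0 to 1 at day 3, 0 to 2 for the late mean, 0 to 2 for late against early and 1 to 2 by the F test. Over all tested probe sets the same omissions gave 16 to 102, 415 to 1509, 1292 to 2419 and 608 to 1368 calls. The cause was not tested. With the replicate block (the sample number as a factor) no member count changed: 1 was called at day 3, 1 at day 35 and 1 for late against early, where Junb had an adjusted p of 0.0358. On array B the block moved the count of probe sets called at day 35 from 449 to 1327, and Nfkbia there kept its call (adjusted p = 0.00293).

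Under the respiratory chain covariate 4 values of other genes changed sign. They were Socs3 on its dimmer probe set at day 35 (-0.0061) and late against early (-0.12), Hif1a on its dimmer probe set (-0.0798) and Zfp36l1 (-0.0798), both late against early. Over all tested probe sets of array A, the day 35 count ran from 14 to 3046 (array weights), beside 900, and the day 3 count from 29 to 377, beside 68. Late against early it ran from 510 to 4114, beside 1880. Scaling moved the median of all probe sets by less than 0.1 on the log2 scale. Of the members, 2 genes were too dim to test, and the 3 samples per group limit what could be detected.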
